A study of Mus musculus with 22 samples.

Results

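Cytoplasmic ribosomal proteins were followed in aortas of ovariectomised female C57BL/6 mice given 17beta-estradiol (E2) or placebo. The members are the probe sets annotated with 1 gene symbol of the form Rpl or Rps and a number, together with the stalk proteins of the Rplp series and Rpsa. Rps6k kinases and pseudogene symbols were left out. The rule found 105 of the 45101 probe sets on the array, for 49 genes. Tests were run on probe sets that exceeded a log2 value of 4 on 3 or more of the 22 arrays, which kept 20410 probe sets in all and 87 probe sets of 45 member genes. Of these genes 21 encode small subunit proteins, 22 large subunit proteins and 2 stalk proteins. A further 110 probe sets carry a ribosomal protein symbol beside other symbols and were not used. Where a gene had several tested probe sets, the gene is represented by its most intense one, by the mean of the 22 arrays.

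The mice were 10 wild-type (WT) littermates, 6 estrogen receptor alpha knockouts (ERaKO) and 6 estrogen receptor beta knockouts (ERbKO), all 2.5 to 4.5 months old, and each carried a pellet for 7 to 8 days. The groups were WT with placebo (n = 5), WT with E2 (n = 5), and ERaKO and ERbKO with placebo or E2 (n = 3 each). Every mouse, controls included, had lost its ovaries. The whole aorta was taken, so each array averages over all cell types of the vessel wall and the tissue attached to it, and 5 ug of RNA of 1 mouse went on each array without pooling. An array is called by its group and its replicate number, as in WT placebo 4.

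Ribosomal proteins assemble with ribosomal RNA into the small subunit, which decodes the mRNA, and the large subunit, which forms the peptide bond. The stalk of the large subunit recruits elongation factors. Most ribosomal protein mRNAs begin with an unbroken run of pyrimidines, the terminal oligopyrimidine (TOP) tract, through which the kinase mTORC1 and the RNA-binding protein Larp1 set how well they are translated. Control of this family therefore acts largely on translation, which an array of mRNA levels does not measure. In blood vessels, growth of smooth muscle cells is accompanied by more ribosome production, and E2 acts there through both estrogen receptors.

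Promoters are shown because the TOP tract lies at the transcription start, so that the genes compared below can be read against it. RefSeq promoter windows (build GRCm38.p6) were matched for 43 of the 49 genes, with 51 windows in all. The 30 bases printed are the 15 on each side of the annotated start, on the gene's strand, 5′ to 3′, and capitals mark a run of at least 7 pyrimidines within 20 bases of the start. Such a run near an annotated start is not a shown TOP tract, and a missing run does not show that the mRNA lacks the tract. First come 6 genes with a run and then 3 without one.
Rplp2 (chr7:141447636-141447665, plus strand): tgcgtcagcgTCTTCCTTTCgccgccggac
Rpl38 (chr11:114668565-114668594, plus strand): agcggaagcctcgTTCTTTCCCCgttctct
Rps9 (chr7:3704026-3704055, plus strand): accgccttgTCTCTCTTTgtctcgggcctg
Rps6 (chr4:86857353-86857382, minus strand): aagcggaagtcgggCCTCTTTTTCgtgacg
Rpl14 (chr9:120571502-120571531, plus strand): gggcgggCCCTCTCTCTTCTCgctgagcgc
Rpl7a (chr2:26910792-26910821, plus strand): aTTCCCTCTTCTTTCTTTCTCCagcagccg
Rps7 (chr12:28635939-28635968, minus strand): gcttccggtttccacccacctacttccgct
Rps28 (chr17:33824548-33824577, minus strand): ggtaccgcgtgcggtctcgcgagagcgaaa
Rpl22 (chr4:152324421-152324450, plus strand): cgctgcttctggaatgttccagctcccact
A run was found for 27 of the 43 genes and in 29 of the 51 windows (56.9%), against 30.2% of all 32851 promoter windows of the same length. In the whole window of 250 bases before and 50 after the start, searched on both strands, the letters CCGGAA, the core read by ETS family factors, stood in 54.9% of member windows and 14.9% of all windows. The E-box CACGTG stood in 9.80% of member windows and 7.15% of all. The palindromic estrogen response element, GGTCA and TGACC with 3 bases between them, stood in 0 member windows and in 0.0700% of all. With 23 matches in all 32851 windows, it is too rare for 0 in 51 member windows to set the members apart. These matches are letters in a window and not shown binding sites.

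Esr1, the gene of the deleted receptor in ERaKO, had a log2 value of 8.52 ± 0.31 (SD, n = 5) in WT with placebo, 8.90 ± 0.18 (SD, n = 5) in WT with E2, and 5.03 ± 0.71 and 4.76 ± 1.10 (SD, n = 3 each) in ERaKO with placebo and E2. The Esr2 probe set was between 2.34 and 2.72 on all 22 arrays, below the filter, so it checks nothing about ERbKO. The median log2 value of an array over all 45101 probe sets was between 3.26 and 3.50. The spread between arrays of a group was smaller for the members than for other probe sets: the median residual standard deviation was 0.234 over the 45 genes, 0.360 over all tested probe sets and 0.311 over the 1692 tested probe sets with a mean over 10. Of the members, 36 had a mean over 10 and 9 a lower one. Smooth muscle markers, which should dominate this tissue, had mean log2 values of 10.7 to 12.2 per array, endothelial markers 6.42 to 7.55, and brown adipocyte markers 8.55 to 11.5. The range of the fat cell markers over the arrays was wider than that of the member mean.

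The members shared a common shift from array to array. In the deviations from the group means, 1 component held 38% of the variance of the 45 genes. The mean of the members, each centred on its own mean over the 22 arrays, was -0.06, -0.10, 0.03, -0.44 and 0.08 in WT with placebo 1 to 5, and 0.11, 0.05, 0.03, 0.14 and 0.07 in WT with E2 1 to 5. In ERaKO it was -0.05, 0.18 and 0.04 with placebo and -0.02, 0.22 and 0.07 with E2. In ERbKO it was -0.16, -0.05 and -0.12 with placebo and 0.03, 0.00 and -0.04 with E2. WT placebo 4 is the low array of the series, and ERaKO E2 2 and ERaKO placebo 2 are the high ones. The centred median of all tested probe sets was also highest on ERaKO E2 2 (0.23) and ERaKO placebo 2 (0.21). The high values of these arrays were therefore not limited to ribosomal proteins. On WT placebo 4 that median was -0.11. The 3 ERbKO placebo arrays all lie below the 3 ERbKO E2 arrays in the mean of the members.

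**Figure D1:**
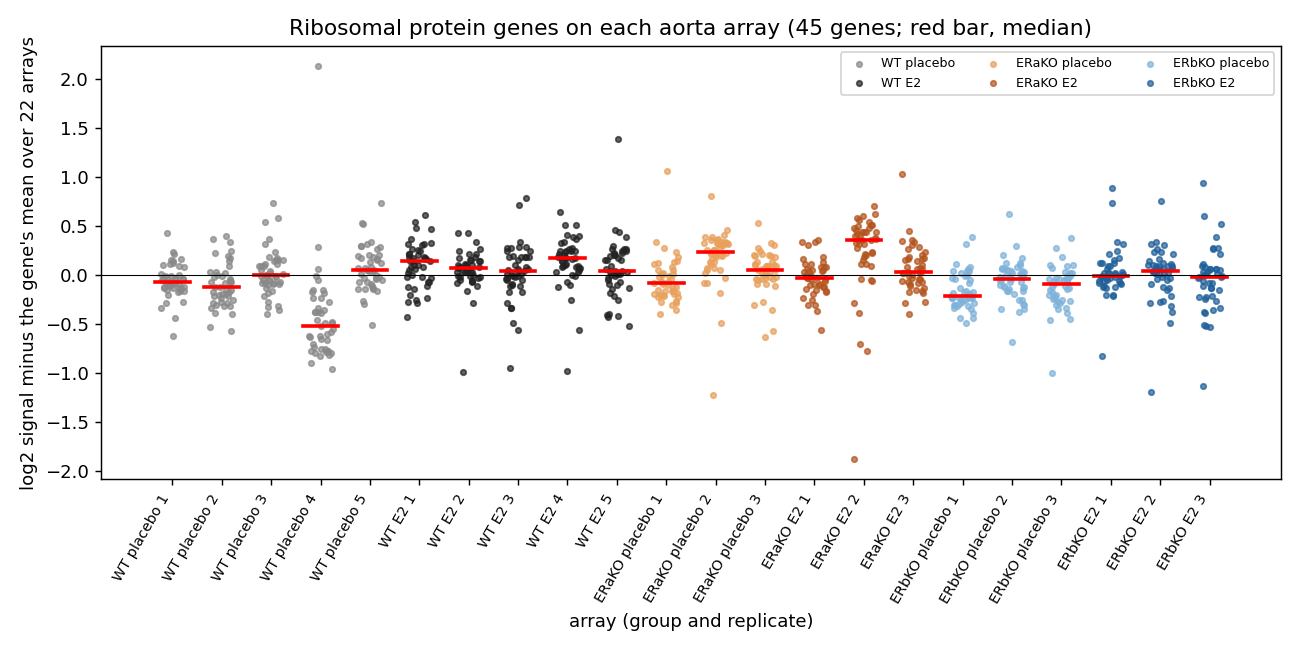
Log2 value of each of the 45 tested ribosomal protein genes minus its mean over the 22 arrays (vertical axis), on each array (horizontal axis, coloured by group); each point is 1 gene and the red bar is the median. The median lies at -0.52 on WT placebo 4, below every other array, and at 0.36 on ERaKO E2 2, above every other array.

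On WT placebo 4, 4 of the 45 genes were above their own median over all arrays and 42 were below their group mean. This array held 18.4% of the residual sum of squares of the members. The same array had the highest marker means for brown adipocytes (11.5), white adipocytes (11.5) and mitochondrial ribosomal proteins (8.79), and the lowest for smooth muscle (10.7) and fibroblasts (11.1). Its tested probe sets with a mean over 10 had a centred median of -0.32, so the low values were not limited to ribosomal proteins. In RNA of a whole vessel, fewer cells of a type and less RNA per cell cannot be told apart, and the part that fat tissue has in the low values of this array was not tested. For comparisons that use WT placebo, the member medians and the named members and lists are also given without this array.

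In WT mice, E2 was set against placebo to ask whether estrogen alters ribosomal protein mRNAs in the aorta. limma called 0 of the 45 members at an adjusted p under 0.05, where 0.387% of all tested probe sets were called, and the smallest adjusted p was 0.450. The log2 change was above 0 for 39 of 45 members with a median of 0.195, beside 52.2% of all tested probe sets and a median of 0.0132. At an unadjusted p under 0.05, 8 members were higher and 0 lower, beside 4.55% and 3.42% of all tested probe sets. The small subunit genes had a median of 0.195 and those of the large subunit and stalk 0.197, which differ little. Groups without overlap were found for 0 members in either direction, beside 1.52% of all tested probe sets with E2 higher and 0.333% with E2 lower. Among strongly expressed genes, with a mean over 10, the median was 0.223 for 36 members and 0.0532 for all 1692 probe sets.

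Without WT placebo 4 the WT median was 0.105, beside -0.000247 for all probe sets, and 35 of 45 members were above 0. Then 1 member was higher and 0 lower with unadjusted p under 0.05, beside 2.93% and 2.49% of all probe sets, and the smallest adjusted p was 0.892. The E2 array minus the placebo array of the same number, in the mean of the members, was 0.16, 0.15, 0.00, 0.58 and -0.01 for numbers 1 to 5. The size of the WT median therefore depends on WT placebo 4. Fat markers differed in the same comparison, with a median of -1.07 for brown and -0.601 for white adipocyte genes, and -0.720 and -0.497 without that array. With the replicate number as a block, 12 members were higher and 2 lower with unadjusted p under 0.05, beside 7.92% and 8.84% of all probe sets, and 0 were called, where 1.70% of all probe sets were.

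**Figure D2:**
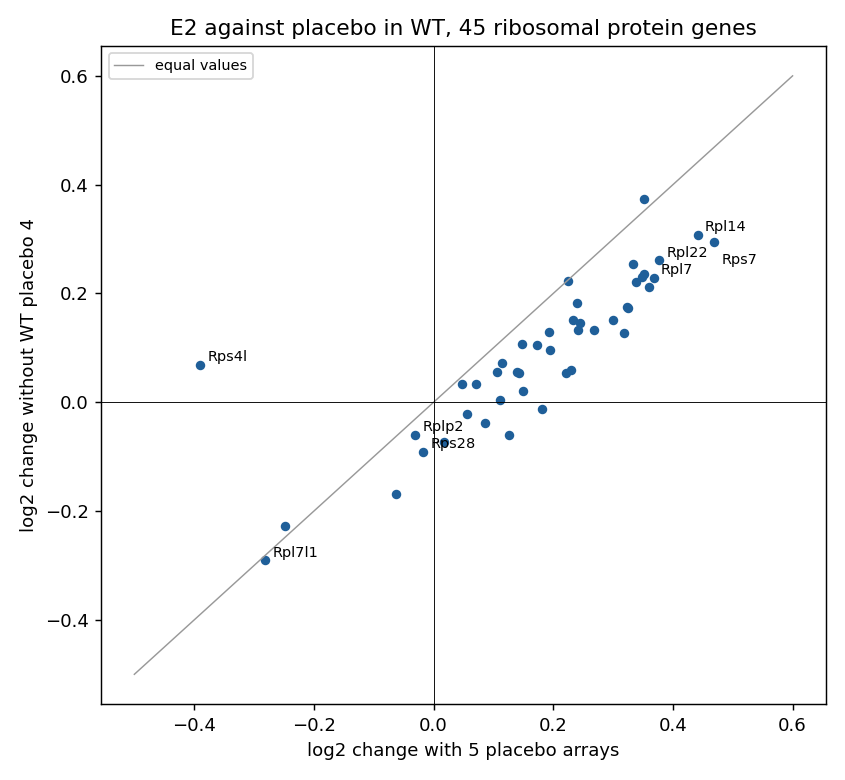
Log2 change for E2 against placebo in WT of the 45 ribosomal protein genes, with all 5 placebo arrays (horizontal axis) and without WT placebo 4 (vertical axis); each point is 1 gene and the grey line marks equal values. Most points lie below the line, with a median of 0.195 with the array and 0.105 without it.

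Among small subunit genes, Rps7, whose protein can bind the p53 regulator Mdm2, had the smallest p. Rps7 had log2 values of 12.68, 12.32, 12.45, 11.60 and 12.44 in WT with placebo and 12.87, 12.67, 12.74, 12.78 and 12.76 with E2. The E2 arrays were close together and WT placebo 1 reached into their range, so the groups overlapped. The log2 change was 0.47 ± 0.17 (SE; 95% interval 0.11 to 0.83; adjusted p = 0.450), and 0.29 ± 0.14 without WT placebo 4 (adjusted p = 0.892). Rps7 had an adjusted p of 0.125 once the replicate block was in the model.

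Rps4x, the X-linked form of the small subunit protein S4, had 12.77, 12.75, 12.98, 12.10 and 12.88 with placebo and 13.18, 13.01, 13.11, 13.14 and 12.84 with E2. The log2 change of Rps4x was 0.36 ± 0.16 (adjusted p = 0.605), or 0.21 without WT placebo 4, and only WT E2 5 lay within the placebo range. Rps26 and Rps3a1, also of the small subunit, had 0.35 ± 0.15 each (adjusted p = 0.563 and 0.576). On both, WT placebo 4 was the lowest array of the group, and without it they had 0.24 and 0.23. Rps6, the substrate of S6 kinase by which mTORC1 activity is commonly read, had 7.56, 7.61, 7.98, 6.91 and 7.86 with placebo and 8.03, 7.70, 7.68, 7.69 and 7.96 with E2. Its groups overlapped, with a log2 change of 0.23 ± 0.16 (adjusted p = 0.763), which was 0.06 without WT placebo 4. Rpsa, which besides its place in the small subunit is known as a laminin receptor, had 11.10, 10.97, 11.58, 10.99 and 11.87 with placebo and 11.26, 11.37, 11.73, 12.05 and 11.76 with E2. Rpsa varied widely in both groups, and its log2 change of 0.33 ± 0.20 had an adjusted p of 0.712 and was 0.25 without WT placebo 4.

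Among large subunit genes, Rpl7 had 12.94, 12.86, 13.26, 12.27 and 12.80 in WT with placebo and 13.21, 13.10, 13.41, 13.16 and 13.08 with E2. WT placebo 3 lay inside the E2 range and the other 4 placebo arrays below it. The log2 change was 0.37 ± 0.15 (95% interval 0.05 to 0.69; adjusted p = 0.557), and 0.23 ± 0.13 without WT placebo 4. Rpl22, whose mouse knockout is known for a defect of T cell development, had 12.57, 12.63, 12.61, 12.08 and 12.82 with placebo and 12.91, 12.75, 12.68, 13.10 and 13.16 with E2, a log2 change of 0.38 ± 0.16 (adjusted p = 0.556), or 0.26 without WT placebo 4. WT placebo 5 was the array that overlapped with E2. Rpl14 had 4.40, 4.54, 4.54, 3.84 and 4.54 with placebo and 4.54, 4.55, 4.88, 5.25 and 4.85 with E2. Those values lie near the filter, and the log2 change of Rpl14 was 0.44 ± 0.18 (adjusted p = 0.532). Rpl6 had 0.34 ± 0.15 (adjusted p = 0.594). Rpl14 had 0.31 and Rpl6 had 0.22 without WT placebo 4. Rpl11, which with Rpl5 carries the signal of faulty ribosome assembly to Mdm2, had 11.85, 11.82, 11.95, 11.45 and 11.70 with placebo and 12.17, 11.92, 11.94, 11.58 and 11.43 with E2. The Rpl11 groups covered nearly the same range, with a log2 change of 0.06 ± 0.14 (95% interval -0.23 to 0.34; adjusted p = 0.947), or -0.02 without WT placebo 4. Rpl5 has no single-symbol probe set.

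The stalk proteins gave unlike values. Rplp0, on which the stalk is built and which many expression studies use as a reference gene, had 13.65, 13.19, 13.45, 13.13 and 13.37 in WT with placebo and 13.69, 13.68, 13.45, 13.79 and 13.37 with E2, a log2 change of 0.24 ± 0.13 (adjusted p = 0.675), or 0.18 without WT placebo 4. Rplp2, the member with the smallest residual standard deviation (0.092), had 13.51, 13.54, 13.50, 13.40 and 13.61 with placebo and 13.41, 13.62, 13.38, 13.58 and 13.40 with E2. Its log2 change was -0.03 ± 0.10 (95% interval -0.24 to 0.17; adjusted p = 0.962), so the interval holds only small changes. The value was -0.06 without WT placebo 4. Rplp1 has no single-symbol probe set.

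Paralogues replace a ribosomal protein in some cells. Rpl7l1, a paralogue of Rpl7, was on the low side in WT, with 8.69, 8.76, 8.53, 8.59 and 8.58 with placebo and 8.51, 8.42, 8.04, 8.67 and 8.10 with E2. WT E2 4 lay within the placebo range, and the log2 change was -0.28 ± 0.16 (adjusted p = 0.672), or -0.29 without WT placebo 4. The other tested probe sets of Rpl7l1 had -0.05 ± 0.12 and 0.04 ± 0.12. Rpl22l1, a paralogue that Rpl22 is known to repress in mouse, had 11.85, 11.78, 11.32, 10.74 and 11.84 with placebo and 12.11, 11.88, 11.60, 11.75 and 11.79 with E2, a log2 change of 0.32 ± 0.19 (adjusted p = 0.704), or 0.13 without WT placebo 4. Rpl22 and Rpl22l1 thus had values of the same sign in WT. Rps27l, a paralogue of Rps27 induced by p53 in human cells, had a log2 change of 0.05 ± 0.12 (adjusted p = 0.948), or 0.03 without WT placebo 4. Rps4l, a mouse paralogue of Rps4x, had 5.30, 5.69, 4.95, 7.49 and 4.84 with placebo and 5.12, 5.78, 4.40, 5.44 and 5.58 with E2. WT placebo 4 was here the highest array, and the log2 change of Rps4l was -0.39 ± 0.44 (adjusted p = 0.862), and 0.07 without that array.

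**Figure D3:**
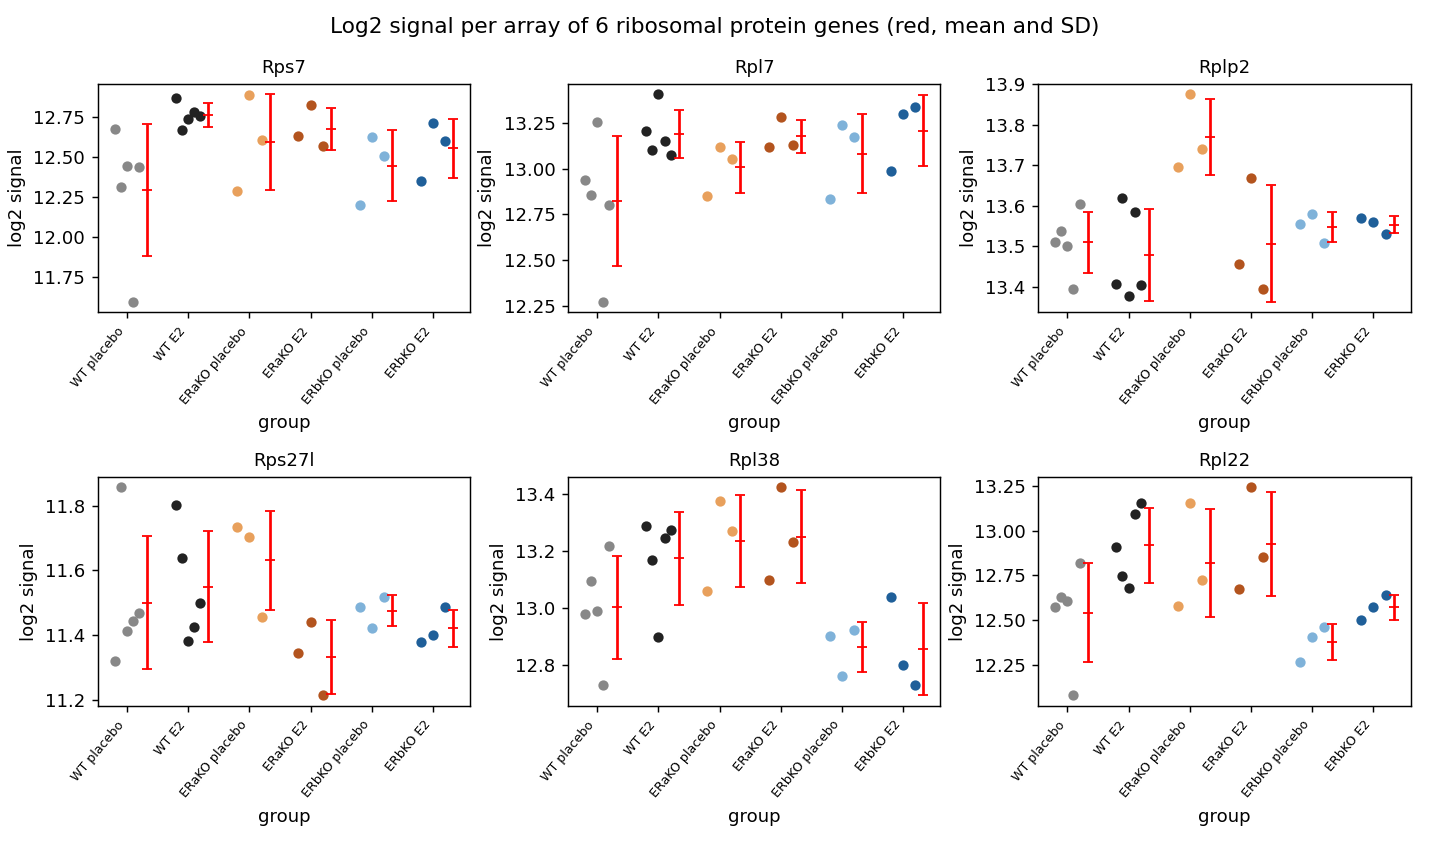
Log2 values by group for Rps7, Rpl7, Rplp2, Rps27l, Rpl38 and Rpl22; each point is 1 array and the red marks are the group mean and standard deviation, on an axis of its own for each gene. Rps7 and Rpl7 have their lowest value on WT placebo 4, Rplp2 has its highest group mean in ERaKO with placebo, and Rpl38 has its lowest group means in ERbKO.

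In ERaKO the comparison asked what E2 does without estrogen receptor alpha. limma called 0 of 45 members, where 0.0049% of all tested probe sets were called, and the smallest adjusted p was 0.734. The median was 0.0409 with 34 members above 0, beside 0.0127 and 51.7% of all tested probe sets. At an unadjusted p under 0.05, 0 members were higher or lower, beside 1.57% and 5.21%. Without ERaKO E2 2, the array with the highest member mean, the median was -0.0689, and without ERaKO placebo 2, the placebo array of the same number, it was 0.153. The E2 array minus the placebo array of the same number was 0.021, 0.039 and 0.030 in the mean of the members, above 0 in 3 of 3 pairs. Each is below 0.122, the pooled standard deviation of the member mean between arrays. The centred median of all tested probe sets was -0.062, 0.207 and 0.044 with placebo and -0.027, 0.231 and -0.013 with E2. It was thus higher with E2 for numbers 1 and 2 and lower for number 3. ERaKO E2 2 also had a brown adipocyte mean of 8.67, against 10.1 and 9.87 on the other ERaKO E2 arrays. The medians of the fat marker lists in ERaKO were -1.37 for brown and -1.17 for white adipocyte genes.

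Rplp2 had log2 values of 13.70, 13.88 and 13.74 in ERaKO with placebo and 13.46, 13.67 and 13.39 with E2. All 3 E2 arrays lay below all 3 placebo arrays, and the log2 change was -0.26 ± 0.13 (95% interval -0.53 to 0.00; adjusted p = 0.734). Rps27l was also separated, with 11.73, 11.70 and 11.46 with placebo and 11.34, 11.44 and 11.21 with E2, a log2 change of -0.30 ± 0.16 (adjusted p = 0.755). The other probe sets of Rps27l had -0.40 ± 0.16 each, so the 3 probe sets had 1 sign. Rps4l had 6.41, 6.16 and 5.31 with placebo and 4.79, 4.65 and 5.28 with E2, a log2 change of -1.05 ± 0.57 (adjusted p = 0.767). Groups that did not overlap were counted over all members: 3 were lower with E2 (Rplp2, Rps27l, Rps4l) and 2 higher (Rpl7, Rps20), beside 9.30% and 3.42% of all tested probe sets. Both shares are near the background.

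On the high side in ERaKO, Rpl7 had 12.85, 13.12 and 13.06 with placebo and 13.12, 13.28 and 13.13 with E2, a log2 change of 0.17 ± 0.20 (adjusted p = 0.945). Rps20 had 13.88, 13.87 and 13.84 with placebo and 13.92, 14.11 and 13.88 with E2, a log2 change of 0.11 ± 0.15 (adjusted p = 0.960). The separation of Rps20 comes from a narrow placebo range. Rps4x had 0.31 ± 0.21 (adjusted p = 0.854) and Rps28 0.41 ± 0.33 (adjusted p = 0.892). Rps7, with the smallest p in WT, had 12.29, 12.89 and 12.61 with placebo and 12.64, 12.83 and 12.57 with E2 in ERaKO. Its groups overlapped, with a log2 change of 0.08 ± 0.22 (95% interval -0.38 to 0.54; adjusted p = 0.987).

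In ERbKO the comparison asked what E2 does without estrogen receptor beta. limma called 0 of 45 members, where 0.098% of all tested probe sets were called, and the smallest adjusted p was 0.99998. The median was 0.122 with 37 members above 0, beside -0.0241 and 44.3% of all tested probe sets, and brown and white adipocyte genes had medians of -0.295 and -0.230. At an unadjusted p under 0.05, 0 members were higher or lower, beside 1.18% and 1.22%. Groups did not overlap, with E2 higher, for 8 members, which are Rpl10a, Rpl22, Rpl7a, Rplp0, Rps18, Rps20, Rps6 and Rpsa, beside 4.40% of all tested probe sets. Left out in turn, the arrays gave medians between 0.0654 and 0.157.

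Rps6 had 7.35, 7.54 and 7.37 in ERbKO with placebo and 7.78, 7.71 and 7.72 with E2, a log2 change of 0.31 ± 0.21 (95% interval -0.12 to 0.75). Rpsa had 11.10, 11.55 and 11.33 with placebo and 11.57, 11.85 and 11.58 with E2, a log2 change of 0.34 ± 0.26. Rplp0 had 13.28, 13.35 and 13.38 with placebo and 13.57, 13.53 and 13.57 with E2, a log2 change of 0.22 ± 0.17. In all 3 the E2 arrays lay above the placebo arrays, while the intervals, for which the spread is estimated over all 6 groups, included 0. Lower values were those of Rpl37, with -0.22 ± 0.37, Rpl22l1, with -0.08 ± 0.24, and Rps27l, with -0.05 ± 0.16. Rpl11 had -0.06 ± 0.18.

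**Figure D4:**
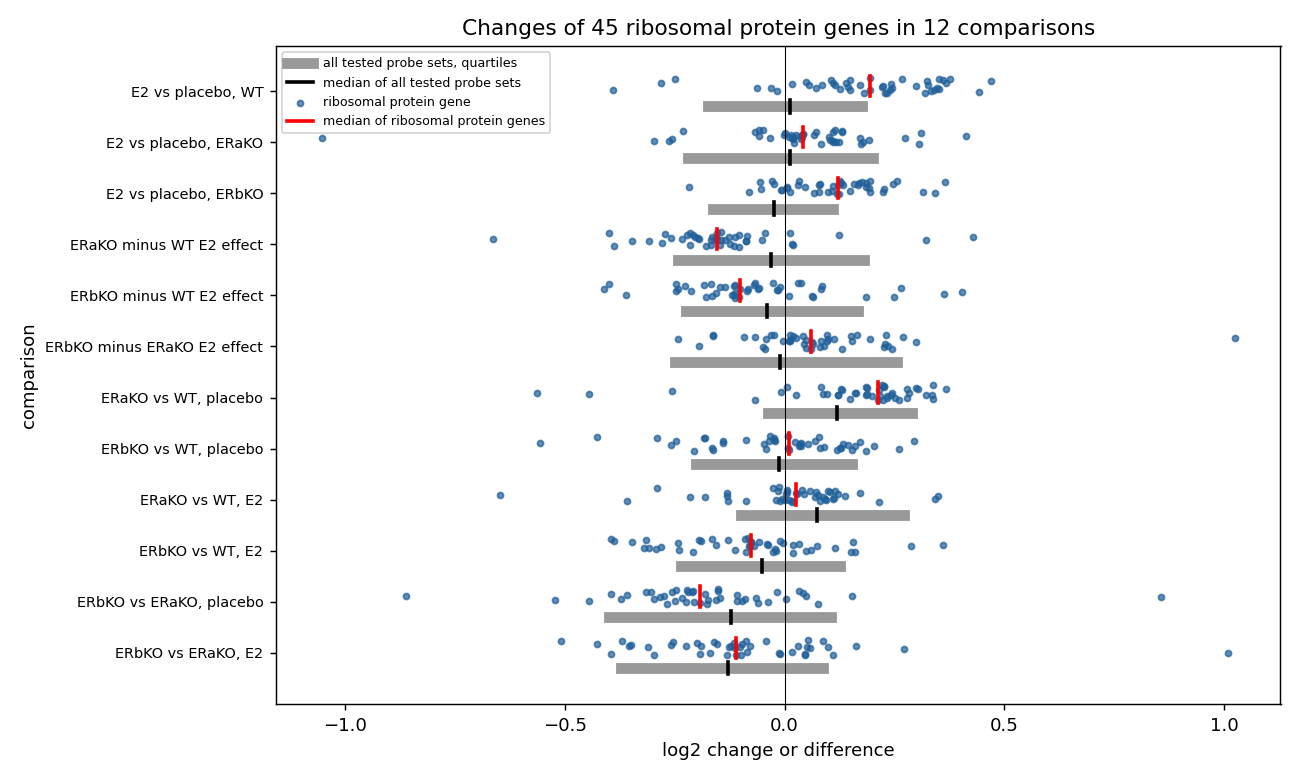
Log2 change or difference (horizontal axis) in each of the 12 comparisons; each point is 1 of the 45 ribosomal protein genes, the red bar is their median, and the grey bar and black mark are the quartiles and median of all tested probe sets. The member median is highest for ERaKO against WT with placebo (0.213) and for E2 in WT (0.195), and 0 genes pass an adjusted p under 0.05 in any comparison.

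Whether the E2 effect differed between genotypes was tested as an interaction. The differences against WT share the same WT arrays and are not independent of each other. limma called 0 of 45 members for ERaKO against WT, ERbKO against WT and ERbKO against ERaKO, where 0.0686%, 0% and 0.0441% of all tested probe sets were called. At an unadjusted p under 0.05, 0 members were higher or lower in any of the 3. The background of higher and lower probe sets was 1.17% and 1.95% for ERaKO minus WT, 0.568% and 0.71% for ERbKO minus WT, and 1.47% and 1.31% for ERbKO minus ERaKO. In the same order, 45.9%, 44.2% and 48.7% of all tested probe sets had a difference above 0. For ERaKO minus WT the member median was -0.153, with 6 of 45 above 0, beside -0.0297 for all probe sets, and it was -0.0461 without WT placebo 4. For ERbKO minus WT the member median was -0.102, with 12 of 45 above 0, beside -0.0402, and it was -0.0125 without WT placebo 4. For ERbKO minus ERaKO, which uses no WT array, it was 0.0598 with 33 above 0, beside -0.00966. That median was -0.029 without ERaKO E2 1 and 0.151 without ERaKO E2 2, so leaving out 1 array turns its sign. Such a fit keeps the placebo array of the same number. The E2 array minus that placebo array, in the mean of the members, was 0.188, 0.059 and 0.080 in ERbKO. In ERaKO it was 0.021, 0.039 and 0.030, so each ERbKO pair lay above each ERaKO pair. The labels state no pairing, and the pooled standard deviation of the member mean was 0.122. The brown adipocyte genes had interaction medians of -0.308, 0.678 and 0.970 in the same 3 comparisons, and -0.603 and 0.366 in those against WT without WT placebo 4.

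Of single members, the ERaKO minus WT difference was -0.35 ± 0.20 for Rps27l (95% interval -0.76 to 0.07), -0.23 ± 0.16 for Rplp2 and -0.40 ± 0.28 for Rpl39, a small protein that lines the exit tunnel. Rpl39 had a low mean log2 value, 5.69. On the high side the difference was 0.32 ± 0.25 for Rpl7l1 and 0.43 ± 0.42 for Rps28. These 5 differences were, in the same order, -0.33, -0.20, -0.31, 0.33 and 0.50 without WT placebo 4. For ERbKO minus WT it was -0.41 ± 0.29 for Rpl14, -0.36 ± 0.28 for Rps7, -0.40 ± 0.31 for Rpl22l1 and 0.40 ± 0.25 for Rpl7l1. These 4 were -0.28, -0.19, -0.21 and 0.41 without WT placebo 4. For ERbKO minus ERaKO it was 0.27 ± 0.18 for Rplp2, 0.24 ± 0.22 for Rps27l, 1.02 ± 0.81 for Rps4l and -0.24 ± 0.33 for Rpl14. Rps4l had 0.51 without ERbKO E2 1 and 1.48 without ERbKO E2 2, and Rpl14 had -0.44 without ERaKO E2 3 and -0.07 without ERaKO E2 2. With all arrays, each of these intervals included 0, so neither a difference of the estrogen effect nor its absence was shown for these genes.

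With placebo, ERaKO was set against WT to ask what the missing receptor alters without hormone. limma called 0 of 45 members, where 0.0049% of all tested probe sets were called. The median was 0.213 with 40 of 45 above 0, beside 0.120 and 69.6% of all tested probe sets, so much of the shift was common to the arrays as a whole. At an unadjusted p under 0.05, 2 members were higher (Rplp2 and Rps14) and 0 lower, beside 2.84% and 0.784%. With each array centred on its own median, the median of all probe sets moved by -0.14 and that of the members was 0.0704 with 31 above 0. Without WT placebo 4 the member median was 0.106, and 0 members were higher or lower at an unadjusted p under 0.05, beside 6.60% and 2.11%. Brown and white adipocyte genes had medians of 0.381 and 0.206 in this comparison, and 0.560 and 0.481 without WT placebo 4.

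Rplp2 lay between 13.40 and 13.61 on the 5 WT placebo arrays and between 13.70 and 13.88 on the 3 ERaKO placebo arrays. It was the only member whose arrays did not overlap with ERaKO higher, beside 1.35% of all tested probe sets, and its difference was 0.26 ± 0.11 (adjusted p = 0.955). With each array centred it was 0.12. Rps14 had 12.74, 12.55, 12.89, 12.35 and 12.84 in WT and 12.70, 13.19 and 13.14 in ERaKO, a difference of 0.34 ± 0.16 (adjusted p = 0.955), with ERaKO placebo 1 inside the WT range. Rps19, the gene most often mutated in human Diamond-Blackfan anaemia, had 0.37 ± 0.18. Rps9 and Rps28 had -0.56 ± 0.44 and -0.44 ± 0.30, and Rps25, with a low mean log2 value of 5.35, -0.26 ± 0.29. Without WT placebo 4, Rplp2 had 0.23, Rps14 0.26 and Rps19 0.30. On the low side Rps9 then had -0.75, Rps28 -0.52 and Rps25 -0.45.

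With E2, ERaKO against WT had a member median of 0.0265 beside 0.0745 for all probe sets. Above 0 were 30 of 45 members and 61.4% of all tested probe sets. limma called 0 members, where 0.240% of all probe sets were called, and 0 were higher or lower at an unadjusted p under 0.05, beside 5.46% and 2.35%. The member median was -0.0788 with centred arrays and -0.0275 after quantile normalisation, so its sign depends on the scaling. Rpl7l1 had 0.35 ± 0.18 (adjusted p = 0.675), Rps15 0.34 ± 0.18 and Rps14 0.21 ± 0.16. On the low side Rps27l had -0.22 ± 0.14 and Rps20 -0.13 ± 0.14. Rps9 had the lowest difference of the members, -0.65, which was 0.04 without ERaKO E2 2.

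ERbKO against WT with placebo had a member median of 0.0110 beside -0.0131, with 25 of 45 members and 47.8% of all tested probe sets above 0. limma called 0 members, where 0.0049% of all probe sets were called, and 0 were higher or lower at an unadjusted p under 0.05, beside 1.37% and 1.67%. Without WT placebo 4 that median was -0.0696, and 1 member, Rps6, was lower at an unadjusted p under 0.05, beside 0.779% higher and 1.74% lower of all probe sets. Brown adipocyte genes had a median of -0.767, and -0.435 without that array. The values with the highest test statistic were those of Rpl7, with 0.26 ± 0.18, Rpl19, with 0.20 ± 0.20, and Rps10, with 0.19 ± 0.20, and Rpl7l1 had -0.25 ± 0.18. Rpl7 had 0.12, Rpl19 0.08, Rps10 0.09 and Rpl7l1 -0.26 without WT placebo 4. Also on the low side, Rps4l had -0.56 and Rpl37 -0.43, or -0.10 and -0.40 without WT placebo 4. With E2 the member median was -0.0772 beside -0.0521, with 12 of 45 members and 41.7% of all tested probe sets above 0. Here limma called 0 members, where 0.0049% of all probe sets were called, and 0 were higher and 1 lower with unadjusted p under 0.05, beside 1.74% and 4%.

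The lower member was Rpl38, a large subunit protein whose loss in the Tail-short mouse alters the axial skeleton. Rpl38 had 13.29, 13.17, 12.90, 13.25 and 13.28 in WT with E2 and 13.04, 12.80 and 12.73 in ERbKO with E2, a difference of -0.32 ± 0.14 (95% interval -0.62 to -0.02; adjusted p = 0.859). WT E2 3 lay inside the ERbKO range. Rpl22 had a difference of -0.35 ± 0.18 (adjusted p = 0.862) with arrays that did not overlap, and the same held for Rps24 and Rps3a1, which makes 3 members beside 3.35% of all tested probe sets. Rps24 had -0.08 ± 0.12 and Rps3a1 -0.24 ± 0.17. On the high side were Rpl19, Rpl7l1 and Rps15. With arrays left out in turn, their differences lay at 0.17 to 0.42, 0.07 to 0.27 and 0.06 to 0.28.

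ERbKO was lower than ERaKO for most members on the deposited scale, and so were most other probe sets. With placebo the median was -0.192 with 7 of 45 above 0, beside -0.123 for all probe sets, and with E2 it was -0.111 with 13 above 0, beside -0.129. Of all tested probe sets, 36.4% were above 0 with placebo and 34.5% with E2. Without ERaKO E2 2 the member median with E2 was -0.0102. Brown adipocyte genes had medians of -0.822 with placebo and 0.0593 with E2, and white adipocyte genes -0.460 and 0.0972. Centring each array moved the median of all probe sets by 0.21 and 0.19 in these 2 comparisons, and the member medians then were 0.0160 and 0.0745. The array median over all 45101 probe sets was not the one used for centring. Its group means were 3.32 in ERaKO and 3.35 in ERbKO with placebo, and 3.37 and 3.34 with E2. After quantile normalisation the member medians were -0.0858 and -0.0482, so the direction of the group depends on the scaling chosen. limma called 0 members in either, where 0.0343% and 0.230% of all probe sets were called. At an unadjusted p under 0.05, 0 members were higher and 2 lower with placebo, beside 1.87% and 8.43%, and 0 were higher and 1 lower with E2, beside 2.44% and 8.73%. Those shares are below the background.

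Rpl38 and Rpl22 were the 2 members with placebo, and Rpl38 the member with E2. Rpl38 had 13.06, 13.38 and 13.27 in ERaKO and 12.90, 12.76 and 12.92 in ERbKO with placebo, and 13.10, 13.42 and 13.23 in ERaKO and 13.04, 12.80 and 12.73 in ERbKO with E2. The genotypes did not overlap under either treatment, and the differences were -0.37 ± 0.16 (adjusted p = 0.474) and -0.40 ± 0.16 (adjusted p = 0.370). With centred arrays they were -0.16 and -0.21. Rpl22 had 12.58, 13.16 and 12.72 in ERaKO and 12.26, 12.40 and 12.46 in ERbKO with placebo, a difference of -0.44 ± 0.20 (adjusted p = 0.479). With E2 it had 12.68, 13.24 and 12.85 in ERaKO and 12.50, 12.57 and 12.64 in ERbKO, a difference of -0.35 ± 0.20 (adjusted p = 0.526). The chosen probe set of Rpl22 did not overlap under either treatment, but both its other probe sets did, with -0.05 ± 0.14 and -0.56 ± 0.23 with placebo. Rpl37a had -0.39 ± 0.22 with placebo and -0.43 ± 0.22 with E2. Over all members, 8 were lower without overlap with placebo (Rpl13a, Rpl22, Rpl37a, Rpl38, Rpl39, Rpl41, Rplp2 and Rps6) and 4 with E2 (Rpl22, Rpl38, Rps24 and Rps3a1), beside 12.9% and 10.3% of all tested probe sets.

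Probe sets of one gene did not always give one answer. Of 20 genes with several tested probe sets, 5 had values of both signs for E2 in WT, and between 4 and 9 did so over the 12 comparisons. Of the 87 probe sets, 38 carry the suffix x_at, which marks probes that can bind transcripts of other genes, and ribosomal proteins have many processed pseudogenes. For E2 in WT these had a median of 0.167, against 0.224 for the 49 others. For ERbKO against WT with E2 the medians were -0.101 and -0.0264, and against ERaKO with E2 -0.137 and -0.0881. In each of these 2 comparisons 2 x_at probe sets and 0 others were lower at an unadjusted p under 0.05. For ERbKO against ERaKO with placebo 6 and 3 were lower. The tested probe set of Rpl38 carries this suffix. The widest gap within a gene, 2.17 on ERaKO E2 2, was that of Rps9. The chosen probe set of Rps9 had 12.86, 11.50 and 12.15 in ERaKO with placebo and 13.08, 10.84 and 12.71 with E2, and 12.64, 13.35 and 13.10 in ERbKO with placebo and 12.85, 13.48 and 13.33 with E2. ERbKO against ERaKO had a difference of 1.01 ± 0.49 for Rps9 with E2 (adjusted p = 0.454), and 0.32 without ERaKO E2 2. Its other probe set had 0.24 ± 0.25.

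Several members had values that went with the replicate number in both treatments. Rps29, the most intense member, had 14.76, 14.84, 14.39, 14.51 and 14.83 in WT with placebo and 14.92, 14.88, 14.32, 14.73 and 14.82 with E2, so replicate 3 was the lowest of both groups. In ERbKO it had 14.70, 14.32 and 14.42 with placebo and 14.83, 14.34 and 14.31 with E2, with replicate 1 the highest of both. Rpl37, a small zinc-binding protein of the large subunit, had 8.23, 8.67, 7.92, 8.57 and 9.01 in WT with placebo and 7.85, 8.43, 7.71, 8.52 and 8.66 with E2. In ERbKO it had 8.67, 8.22 and 7.27 with placebo and 8.59, 7.78 and 7.14 with E2. Every E2 array of Rpl37 in WT and ERbKO was thus below the placebo array of the same number. In WT the log2 change of -0.25 had a standard error of 0.29 without the block and 0.11 with it (adjusted p = 0.283 with the replicate block), and the change was -0.23 without WT placebo 4. Rps28 had 13.45, 13.40, 13.003, 13.03 and 13.74 in WT with placebo and 13.75, 13.65, 13.25, 12.24 and 13.65 with E2, where WT E2 4 was far below the rest. The labels do not say what a replicate number stands for. The widest residual standard deviations were those of Rps4l (0.75), Rpl27a (0.72), Rps9 (0.64), Rpl37 (0.48) and Rps28 (0.42), and Rpl27a, with a mean of 5.14, ran from 4.15 to 6.53 over the WT E2 arrays alone.

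The untested members were Rpl39l, Rpl3l, Rps16 and Rps27. Rpl39l, the form of Rpl39 that is prominent in testis, stayed at or below 2.90 on all arrays. Rps16 was between 2.06 and 2.18 and Rps27 between 3.10 and 3.44, although both encode ribosomal proteins. These single-symbol probe sets may not report the genes' levels, which was not tested. Some tested members were low too: Rpl14, Rpl12, Rpl27a, Rps25 and Rpl39 had means of 4.61, 5.00, 5.14, 5.35 and 5.69. Whether their probe sets report the genes' levels was not tested. Rpl3l, which replaces Rpl3 in striated muscle, reached 7.26 on WT placebo 1 and 4.53 on ERaKO placebo 1 and was at most 3.24 on the other arrays. Those 2 arrays also had the highest means of the striated muscle markers, 10.5 and 7.13.

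Members with and without the promoter run shown above are given side by side, and their difference was not tested. In WT the median log2 change was 0.194 over 25 tested genes with a run and 0.231 over 14 without one. In ERaKO the medians were 0.0210, with 18 of 25 above 0, and 0.0934, with 12 of 14 above 0, and in ERbKO 0.124 and 0.115.

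Other genes of the pathway were given as lists. The 15 tested TOP genes that encode no ribosomal protein, such as elongation factors, had a median of 0.231 for E2 in WT, with 15 of 15 above 0 and 3 higher at an unadjusted p under 0.05. Pabpc1, the poly(A)-binding protein, had 0.77 ± 0.25 (adjusted p = 0.352) and Npm1, the nucleolar chaperone nucleophosmin, 0.47 ± 0.18 (adjusted p = 0.489). The mean of this list on WT placebo 4 was 10.96, the lowest of the 22 arrays. Without that array the WT median was 0.108 with 13 of 15 above 0 and 1 higher at an unadjusted p under 0.05, and Pabpc1 had 0.74 and Npm1 0.34. In ERaKO and ERbKO its medians were 0.0972 and 0.126, with 0 genes past an unadjusted p of 0.05. The 41 ribosome biogenesis factors had medians of 0.0961, 0.0102 and 0.111 in WT, ERaKO and ERbKO, with 5 higher and 1 lower with unadjusted p under 0.05 in WT, 3 and 2 in ERaKO, and 1 and 0 in ERbKO. Rrs1, needed for assembly of the large subunit, had 0.53 ± 0.16 in WT (adjusted p = 0.270), 0.49 ± 0.20 in ERaKO (adjusted p = 0.661) and 0.43 ± 0.20 in ERbKO (adjusted p = 0.99998). Its 3 values had 1 sign. Of all tested probe sets, 4.55% were higher and 3.42% lower in WT at an unadjusted p under 0.05. The shares were 1.57% and 5.21% in ERaKO, and 1.18% and 1.22% in ERbKO. The WT median of the biogenesis list was 0.0647 without WT placebo 4, with 4 higher and 0 lower. Without that array 2.93% of all tested probe sets were higher and 2.49% lower, and Rrs1 had 0.49.

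The 14 tested RNA polymerase I genes, which transcribe ribosomal RNA, had medians of 0.0772, -0.0811 and 0.0225 in WT, ERaKO and ERbKO. In WT Taf1b, a subunit of the promoter selectivity factor of polymerase I, had 0.60 ± 0.23 (adjusted p = 0.490), and in ERaKO the polymerase subunit gene Polr1e had -0.62 ± 0.23 (adjusted p = 0.657). The 30 translation initiation factors had medians of 0.0531, -0.00125 and 0.04995, and the 10 mTOR and Myc regulators -0.0161, -0.0455 and -0.0743. Larp1 had 0.23 ± 0.12 in WT (adjusted p = 0.649). Fau, the small subunit protein whose symbol lies outside the rule, had 0.00 ± 0.19 in WT. Without WT placebo 4 the WT medians were 0.0646 for polymerase I, 0.0462 for initiation factors and -0.0334 for mTOR and Myc regulators, and Taf1b had 0.43, Larp1 0.22 and Fau -0.13. limma called 0 genes of these lists in the 3 E2 comparisons.

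Ribosomal proteins of the mitochondrion had values of the opposite sign. Of 76 tested genes 0 were called, and 0 were higher and 14 lower in WT, 0 and 40 in ERaKO, and 0 and 0 in ERbKO at an unadjusted p under 0.05. Of all tested probe sets 3.42%, 5.21% and 1.22% were lower. Their medians were -0.287, -0.606 and -0.154, beside member medians of 0.195, 0.0409 and 0.122. Mrpl55, a protein of the large mitochondrial subunit, had -0.74 ± 0.24 in WT (adjusted p = 0.348), and Mrpl17, of the same subunit, had -0.39 ± 0.15 in WT (adjusted p = 0.489) and -0.85 ± 0.19 in ERaKO (adjusted p = 0.512). WT placebo 4 was the highest array of this list, and without it the WT median was -0.133 with 4 lower, beside 2.49% of all tested probe sets. Mrpl55 then had -0.55 and Mrpl17 -0.33. Of the fat markers, the 8 brown adipocyte genes had medians of -1.07, -1.37 and -0.295, with 4, 4 and 0 lower (unadjusted p under 0.05). Without WT placebo 4 their WT median was -0.720, with 1 lower. The 7 tested white adipocyte genes had -0.601, -1.17 and -0.230. Smooth muscle genes had 0.301 (0.109 without WT placebo 4), 0.288 and -0.0957, fibroblast genes -0.119 (-0.261 without it), 0.142 and -0.0566, macrophage genes 0.161 (0.109 without it), -0.00592 and 0.514, and endothelial genes 0.398 (0.417 without it), -0.551 and 0.0453. With all arrays, Vwf, an endothelial gene, was the 1 marker called, in WT and in ERbKO. Without WT placebo 4, 2 of the 10 endothelial genes were called in WT. The 2 dividing cell markers had group means of 4.54 with placebo and 3.03 with E2 in WT, with 7.06 on WT placebo 1. The means were 3.54 and 3.23 in ERaKO, and 4.60 and 2.96 in ERbKO, near or below the filter value of 4. Without WT placebo 4 their WT median was -1.63, with 2 lower at an unadjusted p under 0.05. The part of cell composition in the values of the ribosomal proteins was not tested.

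**Figure D5:**
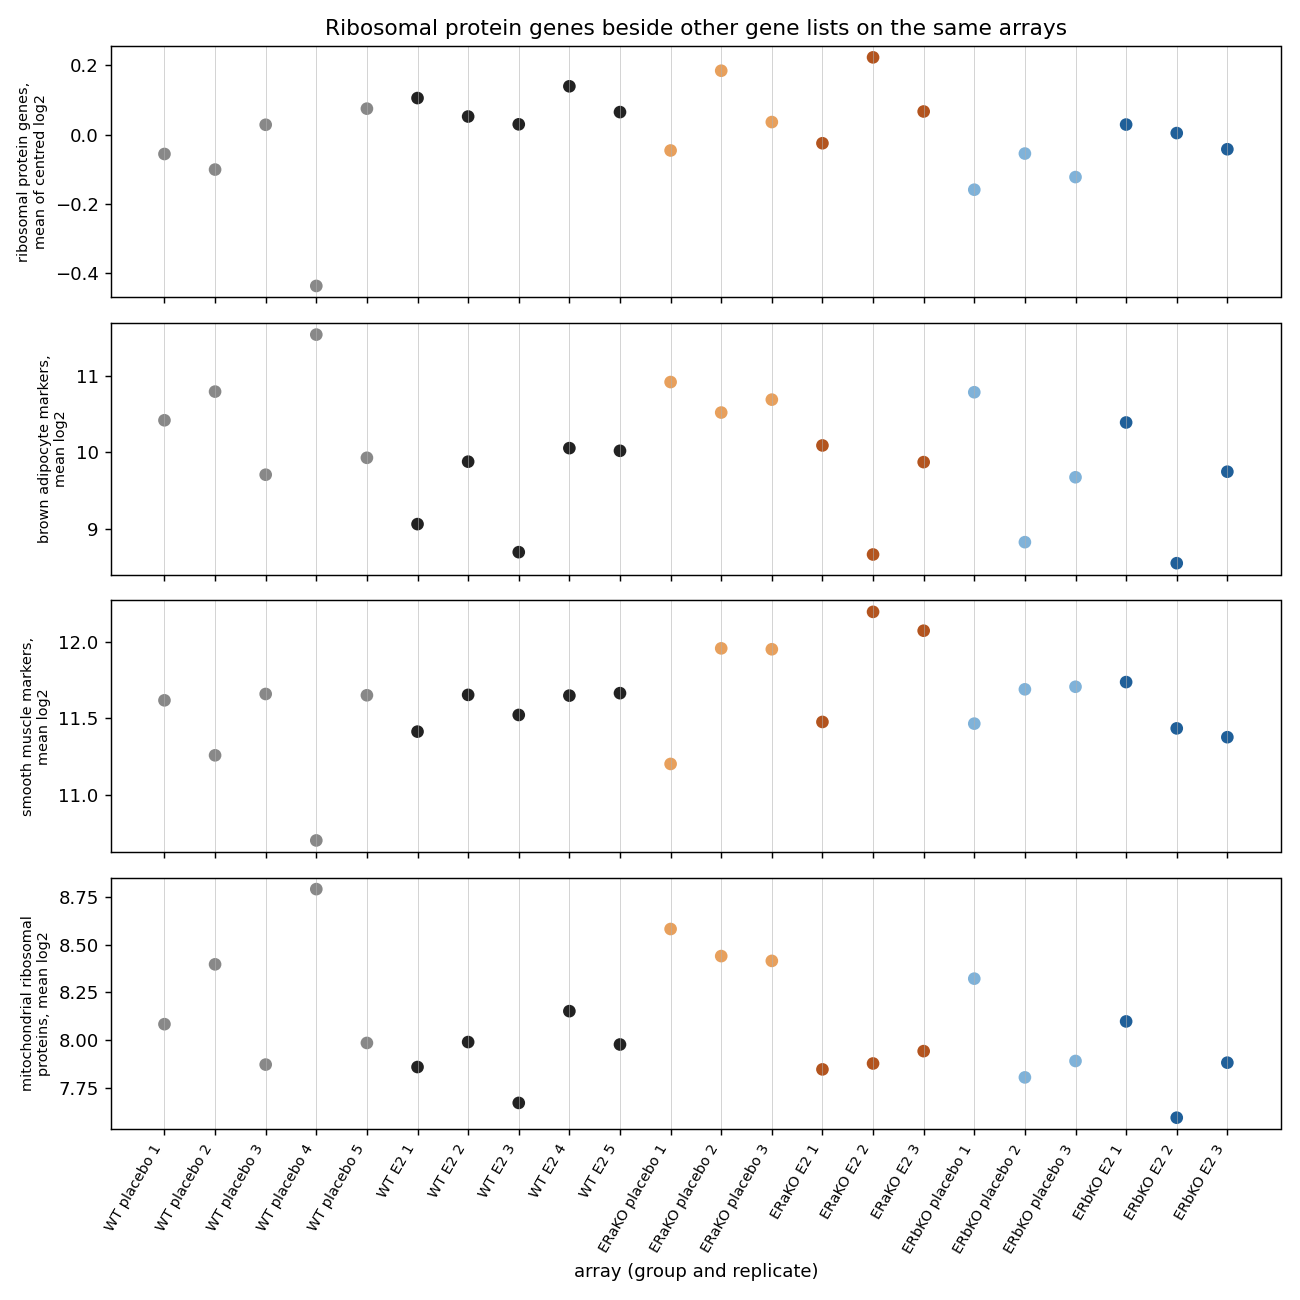
Per array, by group, the mean centred log2 value of the 45 cytoplasmic ribosomal protein genes and the mean log2 values of brown adipocyte markers, smooth muscle markers and 76 mitochondrial ribosomal protein genes. WT placebo 4 is lowest for the cytoplasmic ribosomal proteins and smooth muscle and highest for brown adipocyte markers and mitochondrial ribosomal proteins.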

How the data were processed

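RNA of 22 aortas was hybridised to Affymetrix mouse arrays. The authors deposited 1 log2 value per probe set and array, made with GCRMA per the submitters' processing notes. Versions are not given in the sources used here. The authors also deposited a limma table of log2 fold changes and p-values. Group means gave those fold changes to within 4.98e-08, which fixes the scale as log2, and limma on all probe sets, without adjustment, gave the p-values to within 4.94e-08. GCRMA normalises between arrays, so a change common to all genes would be reduced. Arrays give no read depth, and their number limits the precision.

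Groups follow the sample titles. After 64 control probe sets were left out, 20410 probe sets over a log2 value of 4 on at least 3 arrays were fitted in a model of 6 groups by limma (version 3.58.1, R version 4.3.3) and compared in 12 contrasts. P-values are two-sided, with Benjamini-Hochberg adjustment over all tested probe sets, and a call is an adjusted p under 0.05. Errors are standard errors of the fit where not named as SD. Probe sets were named from the platform annotation, where 34958 carry 1 symbol, 932 several and 9211 none. The symbol rule was read to admit a final digit (Rps3a1, Rpl22l1, Rpl7l1); a stricter reading gives 42 tested genes. Promoter windows are from RefSeq and were searched with Python 3.11.15 and pandas 2.3.3. The fit was tested on simulated data.

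Members and gene lists were chosen with earlier results of these data known. Values of the named members are not printed for every contrast in which they rank. Named genes are the 3 members with the highest and the 3 with the lowest moderated t in each contrast, paralogues, stalk proteins, Rpsa, Rps6, Rpl11 the 5 with the widest residual spread and those whose probe sets had opposite signs at unadjusted p under 0.05 (0 genes), and of the other lists the 2 genes with the smallest p, with those the text singles out by other values chosen after these were seen (such as Rps20, Rps24, Rps26, Rps29, Rps3a1 and Rpl6).

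Deviations of the E2 and placebo arrays of the same replicate number correlated with r of 0.246 to 0.661 over tested probe sets in all 11 pairs within a genotype, and each E2 array correlated best with its own number. The labels state no pairing, so the replicate block is an alternative. Across genotypes 9 of 18 pairs of the same number had r over 0.1 (-0.337 to 0.395). These were not set against pairs of unlike number, so a link of numbers across genotypes was not tested. Other alternatives were low-value filters, scalings, array weights, variance models, the groups fitted, the probe set of a gene, the threshold, the symbol rule and leaving out each array.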

Additional observations from a re-analysis of the deposited data

Results flagged for a closer look

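In WT with placebo (n = 5), 3 named members had an array far from the other 4 by Dixon's ratio at the 95% level, which chance gives in about 1 of 20 groups. Rpl14 had 3.84 on WT placebo 4, against 4.40 to 4.54 on the others. Rps4x had 12.10 on WT placebo 4, against 12.75 to 12.98. Rps27l had 11.86 on WT placebo 2, against 11.32 to 11.47. Over all 45 tested members and their mean, 5 of 92 groups had such an array, which is near the share that chance gives. In 4 of these 5 it was WT placebo 4 on the low side, for Rpl14 and Rps4x and also for Rpl4 (12.71) and Rps3a1 (12.68).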

How the results depend on the processing

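The count of called members was 0 in all 12 comparisons under each alternative run, the 22 fits without 1 array included (0 to 0 in each comparison), and with the replicate block it was 0 as well. The block raised the calls over all probe sets from 79 to 347 for E2 in WT. Of 4889 values of single genes under an alternative, 19 moved by more than the residual standard deviation of the gene, and of 408 member medians 3 moved by more than 0.122, the pooled standard deviation of the member mean. These 3 came from centring each array on its median: ERaKO against WT with placebo had 0.0704, and ERbKO against ERaKO had 0.0160 with placebo and 0.0745 with E2. Medians near 0 took the other sign elsewhere too: ERbKO against WT with E2 had 0.0034 with centring, ERaKO against WT with E2 had -0.0110 with array weights, and ERbKO against WT with placebo had -0.0066 with array weights and -0.0160 with the replicate block. Without 1 array, the median for E2 lay between 0.105 (without WT placebo 4) and 0.267 in WT, between -0.0689 (without ERaKO E2 2) and 0.153 in ERaKO and between 0.0654 and 0.157 in ERbKO. The gene lists without WT placebo 4 were an alternative chosen after seeing the data. Taking all 87 member probe sets, an alternative chosen after seeing the data, gave medians of 0.194, 0.0409 and 0.113. The number of arrays, 3 in each knockout group, limits the precision.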
